A study of Mus musculus with 6 samples.

Results

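Sodium acetate added to RANKL was compared with RANKL alone in mouse bone marrow-derived macrophages after 1 day of treatment. The comparison sets 2 RNA-seq libraries of RANKL with sodium acetate against 2 libraries of RANKL, which are 4 of the 6 libraries of the series. The remaining 2 libraries, untreated macrophages at day 0, are given as background levels and entered no difference. They did take part in the low-count filter, the scaling and the estimate of the spread behind each SE and adjusted p. Every gene with enough counts was taken, 12224 of the 45706 genes in the deposited table, without choosing any by how it moved. Per the labels the cells are primary cells of Mus musculus, while nothing in the sources used here states strain, age, genotype or how much RANKL and acetate was given. RANKL and the day in culture are shared by both groups compared. No group received acetate without RANKL or another sodium salt, so the parts played by acetate and by sodium cannot be told apart. Nothing in the labels says that the libraries of a group came from separate cultures or animals, so p-values measure only the spread between these libraries, which may be technical.

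RANKL is the cytokine that turns macrophage precursors into osteoclasts, the multinucleated cells that dissolve bone with acid and proteases. The precursors give up macrophage genes while the transcription factors Fos and Nfatc1 switch on genes for fusion, proton pumping and collagen cleavage, and interferon signalling is known in mice as a brake on that programme. Acetate is a short-chain fatty acid that cells can turn into acetyl-CoA, the donor for fatty acid synthesis and for histone acetylation.

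Expected counts totalled 10120498 to 10218460 a library with acetate, 10790705 to 11254944 with RANKL alone and 9997515 to 10619528 at day 0. Libraries of a group differed by more than counting noise, with a mean chi-square per gene of 1.93 to 2.58 where noise alone gives about 1, and no library stood apart. All 10 macrophage markers were tested, with 8 raised and 1 (Spi1) lowered. Their summed level was 13173 to 13401 CPM (counts scaled to a common total) with acetate and 6750 to 6863 CPM with RANKL alone. At day 0 it was 18967 to 19390 CPM. Lyz2 held most of each sum, and over the 10 markers the median log2 fold change was 0.46, with 3 raised at least 2-fold. Of 9 T or NK cell markers 6 had 0 counts in every library, and no T, NK or erythroid marker passed the low-count filter. Neutrophil markers, 7 of 9 tested, summed to 178 to 184 CPM with acetate and 190 to 191 CPM with RANKL alone. Endothelial markers, 3 of 6 tested, summed to 21.3 to 25.9 CPM with acetate and 9.69 to 14.4 CPM with RANKL alone, with Cdh5 and Kdr raised (Cdh5 with an adjusted p of 0.0864 without the first RANKL library); their part in the results was not tested. In a bulk sample, fewer cells of a type and less RNA per cell cannot be told apart.

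Acetate changed a large share of the genes tested, most of them slightly, and more of the larger changes were increases. The quasi-likelihood test of edgeR, adjusted over all genes by the Benjamini-Hochberg method, is behind every adjusted p given here. It called 3717 genes (30.4%) at an adjusted p under 0.05. Acetate raised 2040 genes (16.7%) and lowered 1677 (13.7%). At least 2-fold changes were called for 452 raised genes (3.7%) and 183 lowered genes (1.5%). The median change was 1.45-fold among raised genes and 1.24-fold among lowered genes. The 2 acetate libraries lay outside the range of the 2 RANKL libraries for 2037 raised and 1670 lowered genes, against 31.6% of all genes tested lying wholly higher and 31.4% wholly lower. Counting by DESeq2, 2453 genes (20.1%) were called, every one of them also called by edgeR in the same direction. The number lowered was 1084 without the first acetate library and 1081 without the second RANKL library. With 2 libraries a group, a permutation test of a single gene cannot go below a two-sided p of 0.333, so the calls rest on a spread pooled over genes.

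The genes called made up a large share of all messages. Raised genes held 251774 and 250492 TPM (a level per transcript length, scaled to a common total) with acetate, against 183671 and 181587 TPM with RANKL alone, and 342042 and 343831 TPM at day 0. Lowered genes held 266619 and 266339 TPM with acetate, against 320070 and 322134 TPM with RANKL alone, and 214327 and 211850 TPM at day 0. Per length, the most abundant messages called at least 2-fold higher were those of Lyz2, lysozyme, and Spp1, which encodes osteopontin, a secreted phosphoprotein of macrophages and bone. Lyz2 averaged 12947 TPM with acetate, 5341 TPM with RANKL alone and 17174 TPM at day 0. Spp1 averaged 5520 TPM with acetate, 1270 TPM with RANKL alone and 4389 TPM at day 0.

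**Figure D1:**
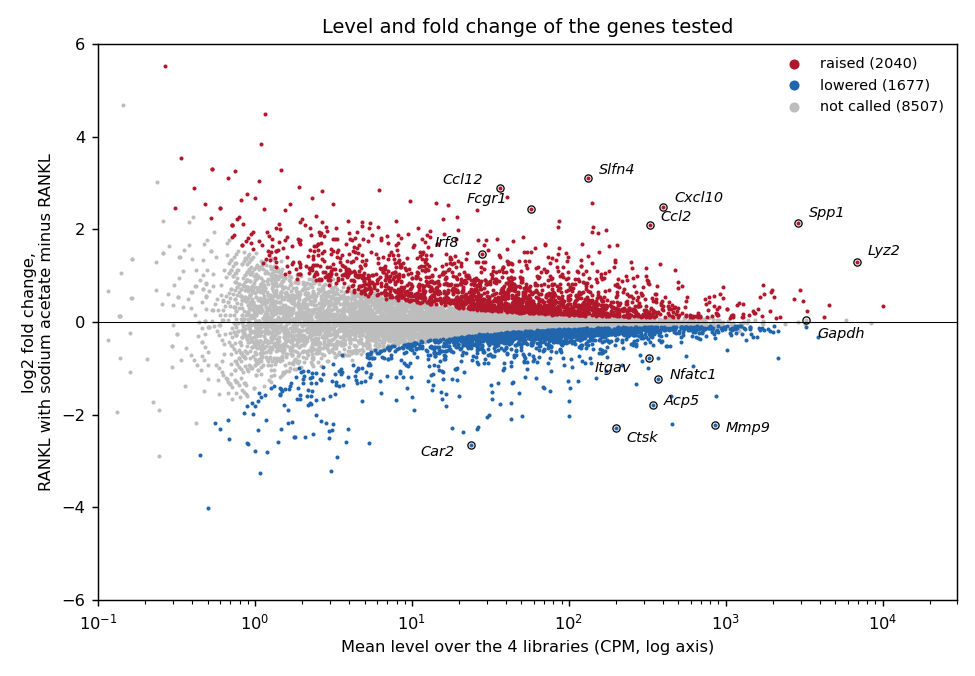
Each point is a gene tested, with its mean level over the 4 libraries in CPM on a log axis across and its log2 fold change, RANKL with sodium acetate minus RANKL, upwards; 19 genes lie outside the plotted range. Red points are the 2040 raised genes, blue the 1677 lowered genes and grey the genes not called, with Slfn4 and Cxcl10 near the top and Car2, Ctsk and Mmp9 near the bottom.

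Among 70 gene lists, more than 50% of the tested members were raised in 29 lists and lowered in 4. The 4 were osteoclast effectors, positive osteoclast transcription factors, nuclear respiratory chain genes and ribosome biogenesis. The median log2 fold change over all genes was -0.00373, and 6 lists had a median above 1: PYHIN genes, CC chemokines, chemokine receptors, Fc receptors, complement and macrophage identity. Lists share some members, and their members were chosen with earlier results of these data known. A count thus describes a list and is no independent test of it. Beside every such count stand the shares of all genes, 16.7% raised and 13.7% lowered.

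**Figure D2:**
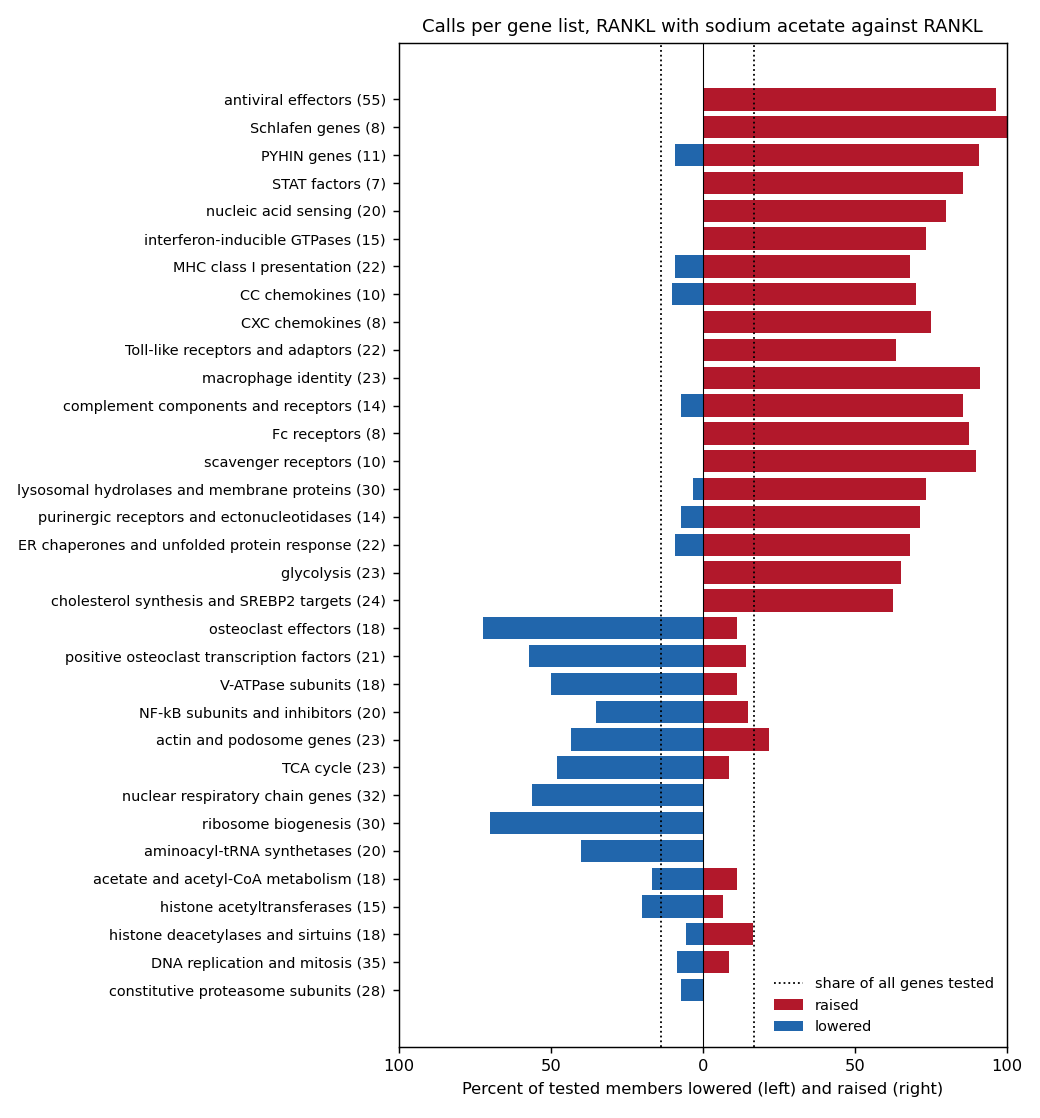
Bars give the percent of tested members of 33 gene lists raised (red, to the right) or lowered (blue, to the left) with acetate; the number tested is in brackets and dotted lines mark the shares of all genes, 16.7% raised and 13.7% lowered. Interferon, chemokine and macrophage lists extend to the right, and osteoclast, respiratory chain and ribosome biogenesis lists to the left.

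Antiviral effector genes, which interferon induces, rose in nearly all cases. Of 55 antiviral effectors tested, 53 were raised, none was lowered, and 27 rose at least 2-fold, with a median log2 fold change of 0.96. The other two, Ifi27 and Ifitm2, were at 0.13 and -0.06 on the log2 scale. Because many of these genes share a promoter element that the interferon-activated factors bind, short stretches around that element are shown for 4 members that rose by at least 2-fold (Ifit3, Ifit1, Rsad2 and Isg15), for the chemokine gene Cxcl10 and for Stat2, which also rose by at least 2-fold. The sequences are RefSeq promoter windows of GRCm38.p6, written 5′ to 3′ on the gene's own strand, and the capitals mark a match on either strand to the interferon-stimulated response element (ISRE), 2 copies of GAAA with any 2 bases between them.
Cxcl10: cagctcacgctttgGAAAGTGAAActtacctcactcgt
Ifit3: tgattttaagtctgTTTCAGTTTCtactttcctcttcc
Ifit1: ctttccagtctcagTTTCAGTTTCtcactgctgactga
Rsad2: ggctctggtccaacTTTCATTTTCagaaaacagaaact
Stat2: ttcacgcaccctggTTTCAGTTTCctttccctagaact
Isg15: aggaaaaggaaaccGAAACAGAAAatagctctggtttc
They lie at chr5:92349079-92349116 (minus strand) for Cxcl10, chr19:34583393-34583430 (plus) for Ifit3, chr19:34640790-34640827 (plus) for Ifit1 and chr12:26456549-26456586 (minus) for Rsad2. The others are at chr10:128270262-128270299 (plus) for Stat2 and chr4:156200861-156200898 (minus) for Isg15.

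Slfn4, a Schlafen gene of myeloid cells on chromosome 11 from 83175186 to 83190216 (GRCm38), had the largest rise of any gene with a mean of at least 10 CPM. It was at 235 and 243 CPM with acetate, against 28.2 and 26.8 CPM with RANKL alone, and 40.9 and 45.5 CPM at day 0, a log2 fold change of 3.12 ± 0.07 (SE, n = 2 per group; adjusted p = 2.65e-28). Both acetate libraries stood far above both other groups. All 8 Schlafen genes tested were raised, from 0.30 for Slfn3 to 3.12 on the log2 scale; several of them are near-identical, so the split of reads among Slfn8, Slfn9 and Slfn10-ps is uncertain. The call of Slfn3 was lost when any 1 of the 4 libraries was left out (adjusted p = 0.0856 to 0.126).

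The Ifit genes, whose products bind foreign RNA, rose together. Ifit3 was at 144 and 142 CPM with acetate, against 29.8 and 32.8 CPM with RANKL alone, and 77.5 and 70.2 CPM at day 0, 4.56-fold higher than with RANKL alone (adjusted p = 8.49e-23). Ifit1 was at 144 and 139 CPM with acetate, against 52.6 and 48.7 CPM with RANKL alone, and 43.3 and 43.6 CPM at day 0. For both genes the acetate libraries were above all libraries of the other groups. Mx1, a GTPase that blocks influenza-like viruses, rose 5.32-fold, and Rsad2, the antiviral enzyme viperin, 3.77-fold. Isg15, a ubiquitin-like modifier, was at 153 and 154 CPM with acetate, against 70.2 and 72.5 CPM with RANKL alone, and 49.7 and 51.5 CPM at day 0. The largest rise in the list was that of Phf11a at 2.85 on the log2 scale.

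In the list of nucleic acid sensing 16 of 20 genes were raised and none was lowered. Besides sensors of foreign nucleic acid it holds adaptors, kinases and other genes such as Nod1 and Nod2. Ifih1 and Ddx58, the RNA helicases MDA5 and RIG-I, rose by 0.97 and 0.59 on the log2 scale, and Zbp1, a sensor of Z-form nucleic acid, 2.55-fold. The adaptor Mavs and the kinase Tbk1, which relay these signals, were not called, at -0.14 ± 0.07 and -0.03 ± 0.07 on the log2 scale. Of 15 interferon-inducible GTPases, which attack the vacuoles of parasites and bacteria, 11 were raised and none was lowered. Irgm1 rose 1.78-fold and Gbp2 2.43-fold, whereas Gbp7 was at 52.6 and 53.2 CPM with acetate and 50.5 and 51.5 CPM with RANKL alone. Of 11 PYHIN genes, a family of DNA-binding proteins, 10 were raised and 1 lowered. Ifi204 rose 3.04-fold, while Ifi202b, the exception, fell to 1.65 and 0.977 CPM with acetate, against 5.32 and 7.8 CPM with RANKL alone and 0 counts at day 0.

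Most transcription factors of the interferon response were raised and the interferons themselves were hardly detected. Stat2, a subunit of the complex that binds the ISRE, was at 137 and 150 CPM with acetate, against 55.0 and 54.1 CPM with RANKL alone, and 155 and 153 CPM at day 0 (log2 fold change 1.40 ± 0.06, adjusted p = 2.47e-19). Of 7 STAT factors 6 were raised, with Stat5a the exception at -0.01 on the log2 scale. Irf7, the factor that amplifies interferon production, rose 2.08-fold and Irf1 1.32-fold, and of 11 interferon regulatory factors 6 were raised and 2 lowered. The lowered members were Irf3 at -0.23 ± 0.08 and Irf2bp2, a co-repressor, at -0.19 ± 0.06 on the log2 scale; without the second RANKL library their adjusted p was 0.305 and 0.17. Ifnb1 had 0 and 2 counts with acetate, 1 and 1 counts with RANKL alone and 0 counts at day 0, and the listed Ifna, Ifnl and Ifng genes had 0 counts in every library, which allows up to 0.257 to 0.314 CPM a library. Receptor genes moved little: Ifnar1 rose 1.12-fold (adjusted p = 0.12 without the first acetate library) and Ifngr1 1.20-fold. Usp18, an interferon-induced brake on its receptor, rose 2.66-fold, while the feedback genes Socs1 and Socs3 were not called, at -0.05 ± 0.22 and 0.03 ± 0.13 on the log2 scale.

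Promoters of the raised genes held the ISRE more often than those of lowered genes. RefSeq windows, 250 bases before to 50 after the start, were matched for 8881 genes, 72.7% of those tested. The ISRE letters, searched on both strands, were in 29 of 302 windows of genes raised at least 2-fold (9.6%), 3 of 115 of genes lowered at least 2-fold (2.61%) and 3.27% of all windows. Within the antiviral list 18 of 41 windows held them (43.9%). Of the 290 genes with the letters 30.7% were raised and 9.31% lowered, against 16% raised and 14.5% lowered of the 8591 without. The STAT letters TTCNNNGAA, which can share bases with an ISRE, were in 10.3% of windows of genes raised at least 2-fold, 6.09% of genes lowered at least 2-fold and 6.92% of all. Under 2-fold the order was the other way, with 6.55% of raised and 8.1% of lowered genes, and of the 615 genes with the letters 17.4% were raised and 16.4% lowered. The AP-1 letters TGANTCA were in 10.3% of the windows raised at least 2-fold, 10.4% of those lowered at least 2-fold and 4.84% of all, and in 5.51% of those raised and 4.31% of those lowered by less. The cyclic AMP element TGACGTCA was in 1.32%, 4.35% and 3.4% of the same sets, and the kappa B letters, GGGA and TTTCC with any 1 base between them, in 0.993%, 0.87% and 0.405%. A match is a description of the letters in the window and not a bound site.

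**Figure D3:**
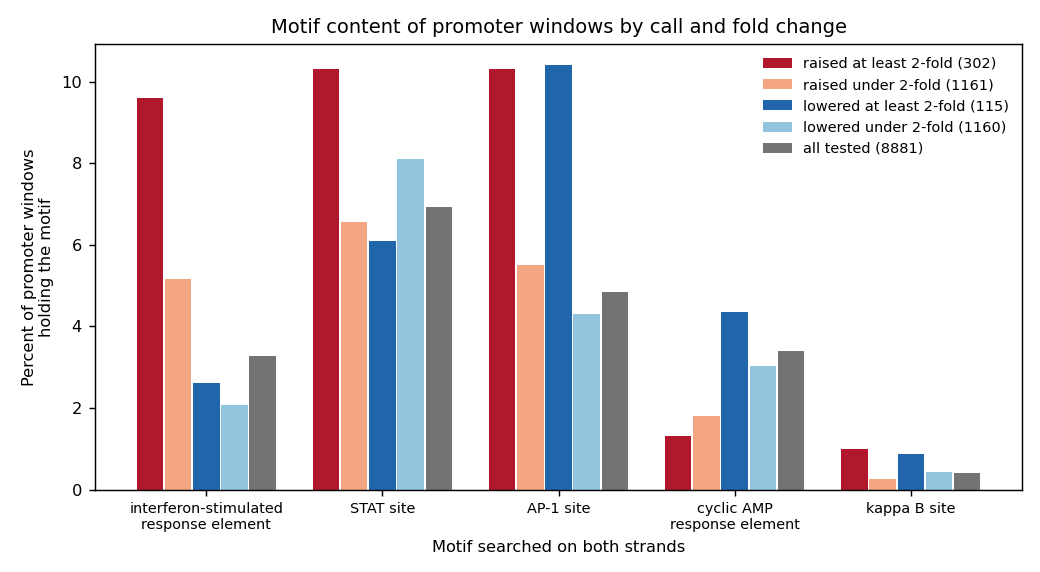
Bars show the percent of RefSeq promoter windows holding each motif on either strand, for genes raised or lowered with acetate by at least or under 2-fold and for all genes tested; the number of windows is in the legend. The ISRE bar of genes raised at least 2-fold stands at 9.6% against 3.27% of all windows, and the AP-1 bars of both groups changed at least 2-fold stand above 10%.

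Chemokines, the secreted proteins that draw leukocytes, were among the genes that rose most. Cxcl10, an interferon-induced attractant of T cells on chromosome 5 from 92346638 to 92348889, was at 678 and 683 CPM with acetate, against 123 and 122 CPM with RANKL alone, and 27.6 and 28.5 CPM at day 0. The acetate libraries were 5.57-fold above RANKL alone (adjusted p = 6.22e-31) and far above day 0. Ccl2, the main attractant of monocytes on chromosome 11 from 82035571 to 82037453, was at 553 and 508 CPM with acetate, against 127 and 121 CPM with RANKL alone, and 1107 CPM in both day 0 libraries. Unlike Cxcl10, its acetate libraries stayed below both day 0 libraries. Ccl12 rose 7.44-fold, Ccl7 5.91-fold, Ccl4 5.73-fold and Ccl3 3.45-fold, all with acetate levels below the day 0 levels. Of 10 CC chemokines tested 7 were raised and 1, Ccl9, lowered. Ccl9, a chemokine that mouse osteoclasts make, was at 822 and 794 CPM with acetate, against 1221 and 1239 CPM with RANKL alone, and 1061 and 1063 CPM at day 0. Of 8 CXC chemokines 6 were raised and none was lowered. Cxcl11 rose 4.05-fold, and Ppbp, a platelet chemokine, was at 9.69 and 10.9 CPM with acetate and 10.6 and 10 CPM with RANKL alone.

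Of 11 chemokine and chemoattractant receptors tested 6 were raised and 2 lowered, all 8 by at least 2-fold, with a median log2 fold change of 1.27 over the 11. Ccr2, the receptor of Ccl2, was at 44.3 and 37.5 CPM with acetate, against 11.8 and 12.2 CPM with RANKL alone, and 41.4 and 44.8 CPM at day 0. Ccr1, a receptor of Ccl9, was at 25.3 and 24 CPM with acetate, against 61.6 and 62 CPM with RANKL alone, and 21.1 and 25.7 CPM at day 0. The acetate libraries thus lay near day 0 for both genes, above RANKL alone for Ccr2 and below it for Ccr1. Cx3cr1 rose 2.41-fold, and Ccr3 fell 2.40-fold.

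Cytokines rose in 8 of 12 cases and inducible macrophage enzymes in 10 of 15, with Lif and Ncf4, a subunit of the phagocyte oxidase, the lowered 2. NF-kB genes did not rise as a group. Tnf was at 28.3 and 28.4 CPM with acetate, against 10.1 and 12.6 CPM with RANKL alone, and 31.1 and 32.9 CPM at day 0 (adjusted p = 2.21e-10). Irg1, the enzyme that makes itaconate, was at 71.7 and 68.2 CPM with acetate, against 11.1 and 10.4 CPM with RANKL alone, and 8.22 and 7.64 CPM at day 0. Irg1 thus rose above both other groups, and Tnf rose to near its day 0 level. Nos2, inducible nitric oxide synthase, was called with few reads, at 22 and 26 counts with acetate and 7 and 13 counts with RANKL alone. The calls of Nos2 and Lif were lost when any 1 of the 4 libraries was left out, with adjusted p = 0.0539 to 0.27 for Nos2 and 0.0545 to 0.25 for Lif. Il6 had 0 counts with acetate and 1 and 0 counts with RANKL alone, and Il1b had 2 and 1 counts with acetate and 0 counts with RANKL alone. Ch25h, which makes an oxysterol, rose 5.98-fold and Igf1, a growth factor of tissue macrophages, 3.83-fold. Cybb and Ncf1, further subunits of the oxidase, rose 1.92-fold and 2.05-fold, and Tnfsf10, the death ligand TRAIL, 3.63-fold. Of 20 NF-kB subunits and inhibitors 3 were raised, near the share of all genes (16.7%), and 7 lowered, above theirs (13.7%). Nfkbiz, an inducible co-factor of NF-kB, rose 3.09-fold, while Nfkb2 and Relb, the subunits of the branch that RANKL engages, fell to log2 fold changes of -0.39 ± 0.04 and -0.41 ± 0.09. Nfkb1, Rela and Nfkbia were not called, and the immediate inhibitor Nfkbia was at 306 and 293 CPM with acetate and 301 and 311 CPM with RANKL alone.

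Of 22 Toll-like receptors, co-receptors and adaptors tested 14 were raised, 9 of them at least 2-fold, and none was lowered. Cd14, the co-receptor for endotoxin, was at 308 and 310 CPM with acetate, against 95.2 and 101 CPM with RANKL alone, and 244 and 228 CPM at day 0. Tlr7 and Tlr8, sensors of single-stranded RNA, rose 2.96-fold and 3.21-fold, and Tlr2 2.20-fold. Tlr4, the endotoxin receptor, rose by 0.68 ± 0.09 on the log2 scale. Myd88, the shared adaptor, was at 96.6 and 85.4 CPM with acetate and 86.2 and 95.5 CPM with RANKL alone, with overlapping libraries. Irak1, Irak2, Irak4 and Tirap were not called either. In the inflammasome and IL-1 list 7 of 14 genes were raised and 2 lowered: Nlrp3, a sensor that builds inflammasomes, rose 2.46-fold, and Gsdmd, the pore protein that inflammasomes activate, fell by 0.68 ± 0.05 on the log2 scale.

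Of 23 macrophage identity genes 21 were raised, all but Ly6c2 and Fcna, with a median log2 fold change of 1.18 and 13 of them at least 2-fold. Lyz2, lysozyme, on chromosome 10 from 117277331 to 117282321, was at 9755 and 9645 CPM with acetate, against 3924 and 3967 CPM with RANKL alone, and 12803 and 12539 CPM at day 0. Siglec1, a lectin of tissue macrophages, was at 239 and 224 CPM with acetate, against 56.4 and 55.2 CPM with RANKL alone, and 851 and 801 CPM at day 0. The acetate libraries of both genes were above both RANKL libraries and below both day 0 libraries. Csf1r, the receptor for the growth factor M-CSF, was at 860 and 825 CPM with acetate, against 634 and 662 CPM with RANKL alone, and 2049 and 1968 CPM at day 0, a log2 fold change of 0.38 ± 0.03. Its rise was one of the smaller ones in the list, in which Cd68 rose 1.08-fold and Fcgr1, the high-affinity receptor for IgG, 5.43-fold. Cd163, a scavenger receptor, was called on 11 counts with acetate and 2 with RANKL alone, a ratio of 6.10 with a 95% counting interval of 1.33 to 56.7. The call of Cd163 was lost without the second acetate library (adjusted p = 0.41) and that of Cd68 without the first (adjusted p = 0.202).

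Genes with which macrophages bind and clear particles were raised as well. Of 14 complement genes 12 were raised and 1, Cd59a, an inhibitor of the membrane attack complex, was lowered, though not without the second RANKL library (adjusted p = 0.104). C1qa, a chain of the first complement component, was at 123 and 129 CPM with acetate, against 45.8 and 45.7 CPM with RANKL alone, and 1053 and 997 CPM at day 0. The acetate level of C1qa was thus nearer to RANKL alone than to day 0. C5ar1, the receptor for the C5a fragment, rose 2.26-fold. Of 8 Fc receptors 7 were raised, and of 10 scavenger receptors 9, among them Cd36 1.98-fold and Msr1 1.99-fold. In the list of TAM receptors and apoptotic cell clearance 8 of 11 were raised, such as Mertk 2.66-fold, and 1, the integrin subunit gene Itgav, was lowered. Purinergic receptors and ectonucleotidases were raised in 10 of 14 cases, with P2ry14 the lowered exception at -1.71 ± 0.29 on the log2 scale.

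Antigen presentation, surface lectins and integrins were raised in part. Of 22 genes of MHC class I presentation 15 were raised and 2 lowered, and Nlrc5, the activator of these genes, was at 53 and 52.8 CPM with acetate, against 24.3 and 22.3 CPM with RANKL alone, and 46 and 44.5 CPM at day 0. Tap1, a chain of the peptide transporter, rose 1.42-fold, while its partner Tap2 fell 1.12-fold and H2-Q7, which has near-identical copies, 1.33-fold. For MHC class II 3 of 8 genes were raised and none lowered, with Cd74, the invariant chain, 1.17-fold higher. Of 15 C-type lectins 7 were raised and 1, Clec4a2, lowered. Mrc1, the mannose receptor, was at 107 and 106 CPM with acetate, against 61.6 and 62.5 CPM with RANKL alone, and 1464 and 1512 CPM at day 0, so that it stayed far below day 0. Clec4e, a receptor for mycobacterial glycolipid, rose 2.41-fold to above its day 0 level. Among 15 integrin subunits 7 were raised, such as Itgam (CD11b) at 1.46-fold, and Itgav and Itga4 were the lowered 2. Of 6 receptors for colony-stimulating factors Csf1r was the raised one, and Csf2rb and Csf2rb2, chains of receptors for GM-CSF or IL-3, were lowered. Of all genes tested, 16.7% were raised and 13.7% lowered. The raised count of these receptors and the lowered count of the integrins are near those shares. Of 15 metalloproteinases and inhibitors 8 were raised, among them Adam17, which sheds TNF, at a log2 fold change of 0.34 ± 0.04, and Mmp9 and Mmp14 were the lowered 2. Calls lost without 1 library were those of Cd74 (adjusted p up to 0.154), H2-Q7 (up to 0.166), Tap2 (up to 0.298), Itga4 (up to 0.119) and Csf2rb (0.0896); leaving out the second acetate library ended the calls of Cd74, H2-Q7, Tap2, Itga4 and Csf2rb.

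**Figure D4:**
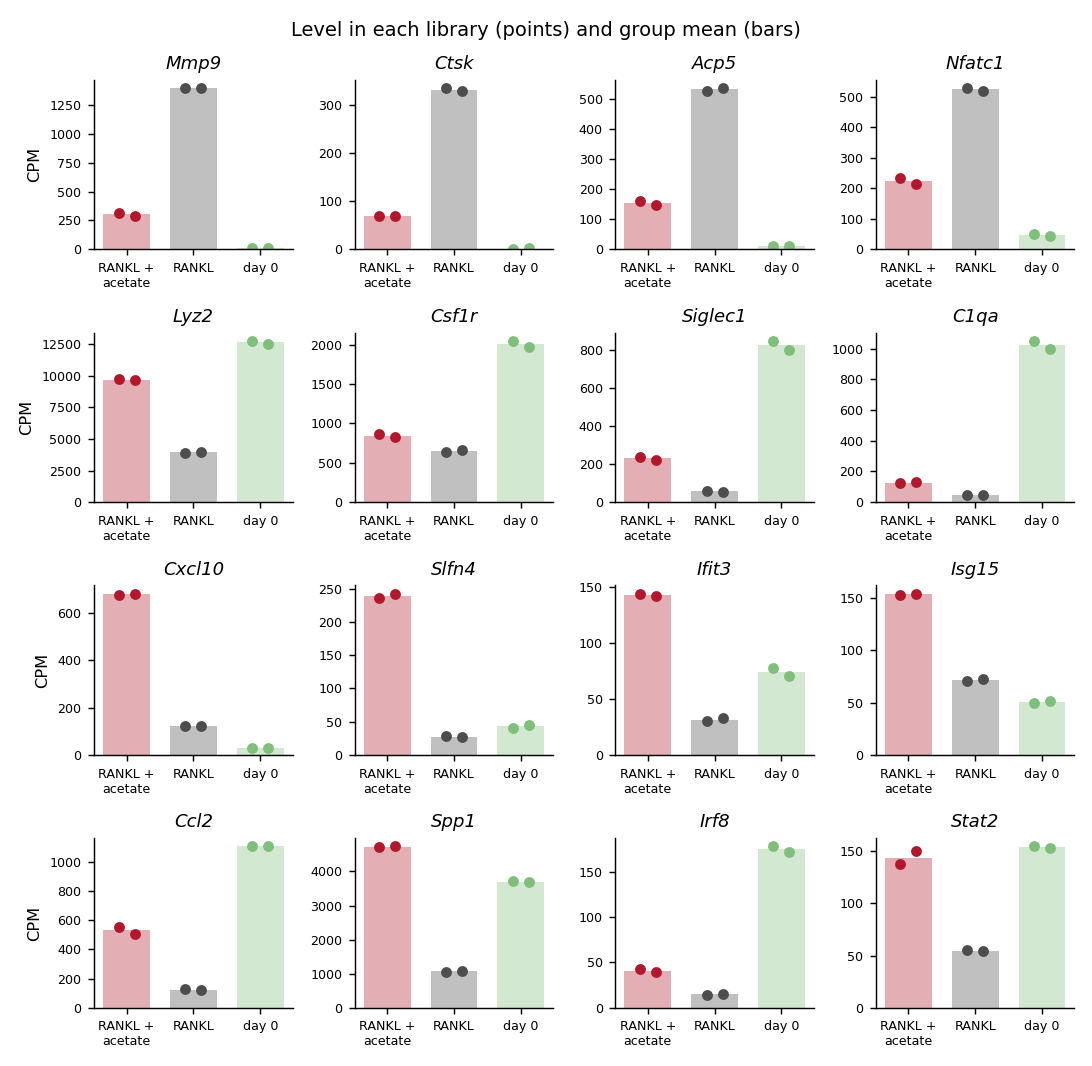
Points give the level of 16 genes in each library in CPM and bars the group mean, for RANKL with acetate (red), RANKL (grey) and day 0 (green), each panel with its own axis from 0. Mmp9, Ctsk, Acp5 and Nfatc1 are lower with acetate than with RANKL, the other 12 genes are higher, and Cxcl10, Slfn4, Ifit3, Isg15 and Spp1 also lie above day 0.

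Osteoclast effector genes were among the strongest decreases. Of 18 tested 13 were lowered, 9 of them at least 2-fold, and 2 raised, with a median log2 fold change of -1.26, which is also the median when Oscar is set at its bound. Mmp9, a matrix metalloproteinase on chromosome 2 from 164940780 to 164955850, was at 313 and 292 CPM with acetate, against 1398 and 1403 CPM with RANKL alone, and 11.5 and 10.7 CPM at day 0. Ctsk, the collagen-cleaving cathepsin K on chromosome 3 from 95499256 to 95509362, was at 68.4 CPM in both acetate libraries, against 335 and 328 CPM with RANKL alone, and 0.891 and 1.47 CPM at day 0. In both genes the groups lay far apart, 4.63-fold and 4.84-fold lower with acetate than with RANKL alone, and acetate stayed well above day 0. Car2, the carbonic anhydrase that supplies protons, fell to 6.01 and 7.13 CPM with acetate, against 40.3 and 42.2 CPM with RANKL alone. Its log2 fold change of -2.65 ± 0.15 (adjusted p = 1.93e-16) was the largest fall among genes picked in the same way as Slfn4. Acp5, tartrate-resistant acid phosphatase, fell 3.46-fold, and Src, a kinase that osteoclasts need for their ruffled border, was at 38.6 and 40.3 CPM with acetate, against 156 and 164 CPM with RANKL alone. Mmp14, a membrane-bound protease, fell 4.09-fold. The 2 raised members were Ckb, creatine kinase B, at 1.46-fold and Acp2, a lysosomal acid phosphatase, at 1.19-fold. Itgb3, an osteoclast integrin subunit, was not called, at 8.24 and 7.42 CPM with acetate and 11.1 and 9.69 CPM with RANKL alone, while its partner Itgav fell 1.71-fold.

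Among the 15 largest falls at a mean of at least 10 CPM, picked in the same way, were also genes outside the osteoclast lists. Slc6a4, the serotonin transporter, was at 8.82 and 8.5 CPM with acetate, against 43.7 and 42.7 CPM with RANKL alone. Adck3, a kinase-like protein needed for ubiquinone, fell 5.17-fold, and Akap6, an anchor of protein kinase A, 4.11-fold. In the list of angiogenic ligands and receptors, Pgf, a VEGF relative, and Vegfc fell 3.15-fold and 1.64-fold, both near 0 at day 0, while Nrp1, a co-receptor of VEGF, rose 2.16-fold and its relative Nrp2 fell 1.70-fold. Of the 10 genes in that list 2 were raised, near the share of all genes (16.7%), and 4 lowered, above theirs (13.7%).

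Oscar, an activating receptor of osteoclasts, had 0 counts in both acetate libraries, 13 and 15 counts with RANKL alone and 0 counts at day 0. It passed the low-count filter through the RANKL libraries alone, so it could only be called lowered. It is among the lowered genes counted for osteoclast effectors and for ITAM co-stimulation. Against a floor of 3 counts over the acetate group it was at least 8.41-fold lower. Such genes were rare: 15 called genes had 3 or fewer counts in one group. Fpr1, a receptor for bacterial peptides, had 28 counts with acetate and 3 with RANKL alone, a ratio of 10.4 with a counting interval of 3.20 to 53.2. Such intervals and the floor reflect the counting of reads alone.

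Dcstamp and Ocstamp, which osteoclast precursors need to fuse, fell, and most other tested genes of the fusion list rose. Dcstamp was at 14 and 18.9 CPM with acetate, against 57.7 and 54.7 CPM with RANKL alone, and under 1 CPM at day 0. Ocstamp was at 16.5 and 16.3 CPM with acetate, against 73 and 66.1 CPM with RANKL alone, and under 1 CPM at day 0. They were the only lowered genes among 11 fusion genes tested, of which 7 were raised. Cd81, a tetraspanin, rose 2.15-fold and Cd47, a ligand that regulates fusion and engulfment, 1.33-fold.

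Of 21 transcription factors that promote osteoclasts 12 were lowered and 3 raised. Nfatc1, the master factor of the programme, was at 232 and 214 CPM with acetate, against 529 and 518 CPM with RANKL alone, and 49.2 and 44.7 CPM at day 0 (log2 fold change -1.23 ± 0.04, adjusted p = 1.14e-21). Prdm1, the repressor Blimp1 that silences macrophage genes, was at 40.3 and 35 CPM with acetate, against 106 and 93.9 CPM with RANKL alone, and 3.17 and 3.56 CPM at day 0. For both factors the acetate libraries lay between the other 2 groups. Bhlhe40 fell 2.67-fold, Fosl2 2.52-fold, Jdp2 1.94-fold and Mitf 1.72-fold, while Fos, which acts first, fell 1.29-fold. Myc was not called, at 192 and 201 CPM with acetate and 201 CPM in both RANKL libraries. The raised members were Ets2 at 2.87-fold, Bhlhe41 at 2.23-fold and Hif1a, the hypoxia factor, at 1.58-fold.

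AP-1 members went in both directions. Of 16 tested 7 were raised and 4 lowered, and the lowered were Fosl2, Jdp2, Junb and Fos. Jun was at 144 and 141 CPM with acetate, against 114 and 117 CPM with RANKL alone, and 183 and 180 CPM at day 0. Maf, a transcription factor of macrophages, was at 56.6 and 50.3 CPM with acetate, against 23.6 and 16.5 CPM with RANKL alone, and 571 and 583 CPM at day 0. Jun and Maf thus moved opposite to Fos, with all libraries of the 2 groups apart. Of 20 other myeloid factors 6 were raised, among them Cebpb at 2.12-fold and Klf2 at 2.59-fold, and 1 was lowered: Spi1, which encodes PU.1, fell 1.19-fold.

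The AP-1 match in the Prdm1 promoter window is printed as an example of the letters found in both directions of change; capitals mark the match, and the stretch is chr10:44458776-44458810 on the minus strand of GRCm38.p6.
Prdm1: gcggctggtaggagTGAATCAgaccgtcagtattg

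Factors that restrain osteoclast formation were mostly raised. Of 11 tested 8 were raised and 2, Tnfaip3 and Nfkbid, lowered, Tnfaip3 with an adjusted p of 0.0929 without the first acetate library. Irf8, the interferon regulatory factor of macrophages, was at 42.2 and 39.7 CPM with acetate, against 14.3 and 15.2 CPM with RANKL alone, and 178 and 172 CPM at day 0. All its libraries with acetate lay between the other 2 groups. Id1 rose 3.54-fold, Bcl6 1.91-fold and Rbpj, the effector of Notch signalling, 1.76-fold.

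The receptor RANK fell slightly, and its signalling genes went in both directions. Tnfrsf11a, which encodes RANK, was at 170 and 175 CPM with acetate, against 230 and 221 CPM with RANKL alone, and 131 and 122 CPM at day 0 (log2 fold change -0.39 ± 0.05). Traf6, the adaptor of RANK, was not called, at -0.12 ± 0.08 on the log2 scale, and of 15 genes of RANK and TNF receptor signalling 4 were raised and 4 lowered. In the ITAM co-stimulation list 4 of 18 were raised and 7 lowered. Tyrobp and Plcg2, an adaptor and a phospholipase of that pathway, were not called, at 0.04 ± 0.04 and 0.05 ± 0.05, and Syk, its kinase, fell to -0.25 ± 0.05. Calcineurin and the other NFAT genes were mostly not called. In a list of 13, Nfatc1 and Rcan1, a target of NFAT, were lowered and the calcium channel genes Itpr1 and Itpr3 raised. Both counts are near the shares of all genes, 16.7% raised and 13.7% lowered.

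Acid secretion genes and the general lysosome parted. Of 18 V-ATPase subunits 9 were lowered and 2 raised. Atp6v0d2, the subunit of osteoclasts, was at 44.8 and 49 CPM with acetate, against 150 and 158 CPM with RANKL alone, and 2.77 and 2.2 CPM at day 0. Atp6v1b2 fell 1.66-fold, and Tcirg1, the osteoclast form of the a subunit, 1.27-fold. Atp6v0a1, another form of that subunit, was at 48.2 and 41.2 CPM with acetate, against 23.7 and 23.4 CPM with RANKL alone, and 283 and 278 CPM at day 0, so the 2 forms moved in opposite directions. Of 30 lysosomal hydrolases and membrane proteins 22 were raised and 1, Npc1, lowered, with a median of 0.26 on the log2 scale; the adjusted p of Npc1 was 0.06 without the second acetate library. Ctsc, which activates serine proteases, rose 2.38-fold, and the abundant proteases Ctsl, Ctsd and Ctsb rose 1.62-fold, 1.40-fold and 1.37-fold. Of 23 actin and podosome genes 10 were lowered and 5 raised, with Scin, an actin-severing protein that was at 0 counts at day 0, 2.78-fold lower.

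**Figure D5:**
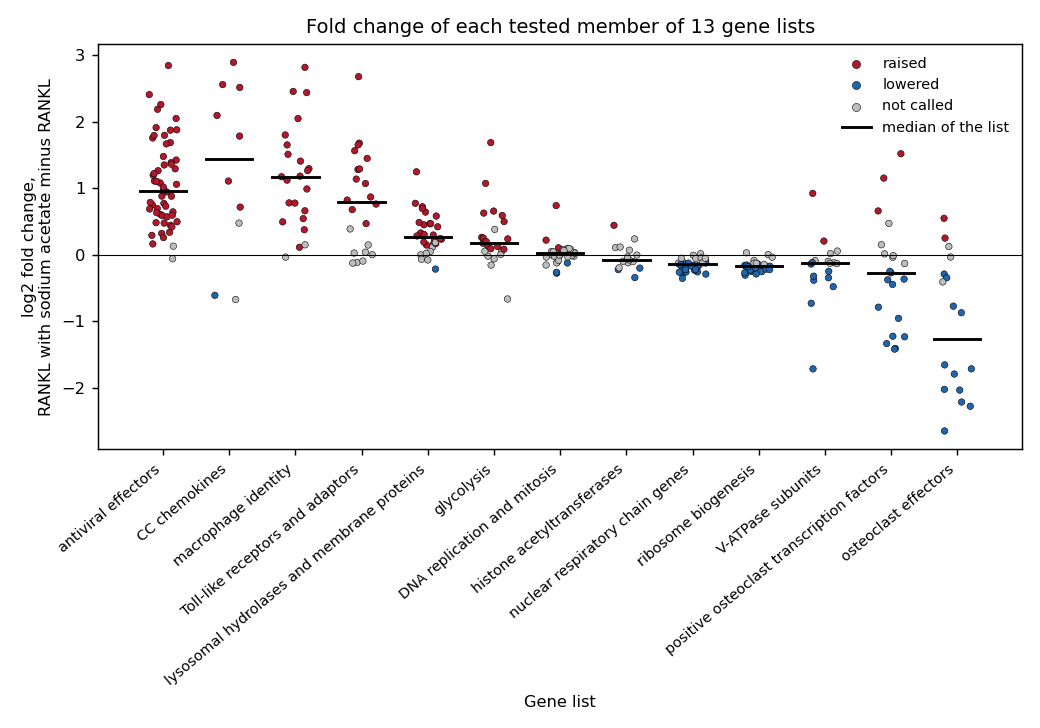
Each point is a tested member of one of 13 gene lists, placed by its log2 fold change, RANKL with sodium acetate minus RANKL; red points were raised, blue lowered and grey not called, black bars are list medians, and sideways scatter only separates points. Antiviral, chemokine and macrophage members lie high, respiratory chain and ribosome biogenesis members sit closely just below 0, and osteoclast effectors lie low; Oscar, at 0 counts with acetate, is not drawn.

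Of 18 genes of acetate and acetyl-CoA metabolism 2 were raised and 3 lowered, near the shares of all genes (16.7% raised and 13.7% lowered), and none changed by 2-fold. Acss2, the cytosolic enzyme that makes acetyl-CoA from acetate, was at 6.59 and 6.25 CPM with acetate, against 4.89 and 5.2 CPM with RANKL alone, and was not called (log2 fold change 0.35 ± 0.21). Acss1, its mitochondrial counterpart, was at 3.39 and 3.61 CPM with acetate and 3 and 3.59 CPM with RANKL alone, against 45.6 and 51.8 CPM at day 0. Acly, the citrate-splitting source of cytosolic acetyl-CoA, fell to 234 and 243 CPM with acetate, against 283 and 260 CPM with RANKL alone (adjusted p = 0.0755 without the first RANKL library), and Pdhb, a subunit of pyruvate dehydrogenase, fell by 0.38 ± 0.06 on the log2 scale. The short-chain fatty acid receptors Ffar2 and Ffar3 were scarcely detected. No count of Ffar3 was found in any library, and Ffar2 had 1 and 7 counts with acetate and 8 and 0 counts with RANKL alone. Among transporters, Slc16a1 was not called, Slc16a3, a lactate exporter, rose 1.53-fold and Slc16a6 fell by 0.32 ± 0.07 on the log2 scale.

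Of 15 histone acetyltransferases 1 was raised and 3 were lowered, and of 18 deacetylases and sirtuins 3 were raised and 1 lowered, beside 16.7% raised and 13.7% lowered of all genes. Ep300 was at 141 and 134 CPM with acetate, against 130 and 125 CPM with RANKL alone, with an adjusted p of 0.111. Hdac3 was at 61.2 and 65 CPM with acetate and 61.6 and 64 CPM with RANKL alone. Among the raised members were Hdac9, a deacetylase with a higher level at day 0, which rose 2.83-fold, Ncoa3, a coactivator, which rose 1.36-fold, and Hdac1, which rose by 0.33 ± 0.06 on the log2 scale. Of 27 bromodomain readers and chromatin remodellers 9 were lowered and 1 raised. Dnmt3a, a DNA methyltransferase known to act in mouse osteoclast formation, fell 1.40-fold and Kdm6b, a histone demethylase, 1.57-fold.

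Energy genes moved by small amounts in opposite directions. Of 23 glycolysis genes 15 were raised and none was lowered, with a median of 0.17 on the log2 scale. Pfkp, a form of the committing enzyme, rose 1.55-fold, Slc2a3, a glucose transporter, 1.58-fold and Pkm, pyruvate kinase, 1.18-fold, while Gapdh was not called. Of 32 nuclear respiratory chain genes 18 were lowered and none raised, with a median of -0.14, and the most lowered, Ndufb10, was at -0.35 ± 0.07. Atp5b, a subunit of ATP synthase, fell to 1341 and 1387 CPM with acetate, against 1505 and 1507 CPM with RANKL alone, and 1116 and 1126 CPM at day 0. In the TCA cycle 11 of 23 were lowered and 2 raised, with Mdh2 1.23-fold lower and Idh1, a cytosolic enzyme, 1.37-fold higher. Transcripts encoded in the mitochondrial genome split, with 3 of 13 raised and 6 lowered. mt-Co2, a subunit of complex IV, was at 2359 and 2408 CPM with acetate, against 1611 and 1430.0 CPM with RANKL alone, and mt-Cytb, a subunit of complex III, at 1856 and 1839 CPM with acetate, against 2201 and 2085 CPM with RANKL alone. The 2 RANKL libraries differed by more than the 2 acetate libraries for mt-Co2, and nuclear near-copies of these genes make the split of reads uncertain. Of 9 pentose phosphate genes 5 were raised and 1 lowered, with G6pdx, the first enzyme, 1.34-fold higher. These directions of the list medians were the same under every other scaling tried.

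Sterol genes and chaperones of the endoplasmic reticulum rose by similarly small amounts. Of 24 genes of cholesterol synthesis and its control 15 were raised and none was lowered, with a median of 0.27 on the log2 scale. Insig1, an inhibitor of SREBP activation, was at 28.6 and 27.6 CPM with acetate, against 21.3 and 19.6 CPM with RANKL alone, and 209 and 202 CPM at day 0. Fdps, an enzyme of the pathway, rose 1.49-fold. Of 16 fatty acid synthesis genes 6 were raised and 2 lowered: Fads1, a desaturase, rose 1.76-fold, and Fasn, the synthase, fell 1.14-fold. Of 16 LXR targets and efflux genes 7 were raised, such as Plin2, which coats lipid droplets, at 1.72-fold, and Abcg1 and Pltp, which move lipid out of cells, fell 1.40-fold and 1.31-fold. Of 22 endoplasmic reticulum chaperones and sensors 15 were raised and 2 lowered. Hspa5, the main chaperone there, rose by 0.38 ± 0.03 on the log2 scale, and the sensor gene Ern1 and Edem1, which sorts misfolded proteins, were the lowered 2; the adjusted p of Ern1 was 0.0601 without the first RANKL library. Cytosolic chaperones were raised in 5 of 19 cases and lowered in 7, and the inducible Hspa1a and Hspa1b, near-identical copies, rose 2.02-fold and 1.96-fold. Of 20 antioxidant genes 9 were raised and 3 lowered, with Nfe2l2, the factor NRF2, higher by 0.59 and Prdx1 by 0.60 on the log2 scale. Of 18 iron and haem genes 9 were raised and 4 lowered. Hmox1, which breaks down haem, rose 1.81-fold, and Fth1 and Ftl1, the ferritin chains, rose 1.61-fold and 1.27-fold. Tfrc, the transferrin receptor, fell 1.27-fold and Ncoa4, which sends ferritin for breakdown, 1.68-fold.

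Genes for making ribosomes fell slightly and cell division genes did not move together. Of 30 ribosome biogenesis genes 21 were lowered and none raised, with a median of -0.17 on the log2 scale. Ncl, nucleolin, was at 2024 and 1980 CPM with acetate, against 2305 and 2280 CPM with RANKL alone, and 746 and 769 CPM at day 0. The members lay in a narrow range, and the most lowered, Nhp2, was at -0.30 ± 0.05. Aminoacyl-tRNA synthetases were lowered in 8 of 20 cases and raised in none. Of 35 DNA replication and mitosis genes 3 were raised and 3 lowered, below the shares of all genes in both directions (16.7% raised and 13.7% lowered). Mki67 and Top2a, markers of dividing cells, were not called, at 0.08 ± 0.04 for each, and E2f2, a factor of cell cycle entry, rose 1.67-fold. Of 15 cyclin and inhibitor genes 7 were raised and 2 lowered. Ccnd1, cyclin D1, was at 857 and 864 CPM with acetate, against 602 and 612 CPM with RANKL alone, and Cdkn1a, the inhibitor p21, rose 1.37-fold. Among ERK feedback genes Dusp6, a phosphatase of ERK, was at 46.7 and 44.8 CPM with acetate, against 12.9 and 14 CPM with RANKL alone, and 317 and 316 CPM at day 0, while of the 15 in that list 2 were raised and 3 lowered. Of 11 genes of the MYC network 2 were raised and 4 lowered. Of 26 ATF4 targets 4 were raised and 6 lowered, with Atf4 itself 1.13-fold lower (adjusted p = 0.103 without the second RANKL library), and of 12 hypoxia targets 4 were raised and none lowered. Constitutive proteasome subunits were not called in 26 of 28 cases.

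Genes of the response to salt, osmolarity and pH were lowered more often than raised. Of 19 such genes 4 were raised, near the share of all genes (16.7%), and 7 lowered, above theirs (13.7%). Slc5a3, the myo-inositol transporter that cells raise under high salt, fell to 27.1 and 23 CPM with acetate, against 70.6 and 73.2 CPM with RANKL alone, and 8.12 and 7.33 CPM at day 0. Nfat5, the factor that answers high salt, was not called, at 169 and 162 CPM with acetate and 179 and 169 CPM with RANKL alone. Gpr65, a proton-sensing receptor, rose 2.61-fold, and Slc4a2, the chloride and bicarbonate exchanger of osteoclasts, fell 1.38-fold.

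Several raised genes were neighbours on their chromosomes. Runs of at least 4 adjacent tested genes, all called and raised at least 1.5-fold, numbered 10 and held 46 genes, and no such run was lowered, with 938 raised and 344 lowered genes at that fold (7.70% and 2.83% of those with a position). The longest was the Ifit cluster on chromosome 19 from 34550694 to 34650009, in which 6 genes, Ifit2, Ifit3, Gm14446, Ifit3b, 2010002M12Rik and Ifit1, rose by log2 fold changes of 1.43 to 2.26, although 2010002M12Rik lost its call when any 1 of the 4 libraries was left out (adjusted p = 0.0667 to 0.23). The PYHIN cluster on chromosome 1 from 173747293 to 173942672 held 5 genes raised by 0.81 to 2.22. Other runs were the Phf11 genes on chromosome 14, the Ms4a genes on chromosome 19, the Oas genes on chromosome 5, the Trim30 genes on chromosome 7 and the Cd300 genes on chromosome 11. A run on chromosome 6, of Clec4n, Clec4d, Clec4e and Cd163, reached 4 genes only with Cd163. The call of Cd163 was lost with DESeq2 and without the second acetate library. Members of such clusters can share reads where copies are near-identical, so their values need not be independent.

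Few genes showed a shift between transcripts. Among 229 genes picked by the rule for named genes and with at least 2 transcripts at 5% or more of their counts, the share of the leading transcript differed by a median of 3.34 percentage points, and it moved by at least 10 points with separated libraries in 15 genes of 500 or more counts. The leading transcript of Nlrp3 held 58.5% and 45.3% of its counts with acetate, against 74.3% and 91.5% with RANKL alone, and 15.7% and 28.9% at day 0. That of Src held 72.5% and 77.5% of its counts with acetate, against 97.7% and 97.1% with RANKL alone. Libraries of a group lay closer together for Src than for Nlrp3. Transcript counts are estimates from reads that fit several transcripts, and these shares were not tested.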

How the data were processed

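RNA was measured in 6 libraries of mouse bone marrow-derived macrophages, made with a SMARTer mRNA-seq kit after miRNeasy extraction, per the labels' protocols. The authors deposited RSEM expected counts, TPM and FPKM per gene and expected counts per transcript. Trimmomatic 0.39, STAR, RSEM 1.3.1, DESeq2 1.26.0 and the GRCm38 (mm10) build are named in the submitters' processing notes. Expected counts, of which 97.1% lay within 0.005 of a whole number, were rounded. Genes passing edgeR's filter (minimum count 10, minimum total 15) were scaled by TMM and tested in 1 fit of all 6 libraries with edgeR 4.0.16 (R 4.3.3), quasi-likelihood, after a test on simulated data. Fold changes are RANKL with sodium acetate over RANKL. Levels are CPM of the scaled totals, and TPM between genes. Positions come from GENCODE M21, found for 98.8% of the genes.

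Members and gene lists were chosen with earlier results of these data known. Genes named are the 15 largest called rises and falls with a mean of at least 10 CPM and separated libraries, the 10 largest in TPM each way, up to 5 called genes a direction and 3 others a list, and 25 chosen genes. Some genes under this rule are not reported here. Outside that rule, after their values were seen, were named Cdh5, Isg15, Slfn3, Slfn10-ps, Phf11a, Zbp1, Gbp2, Socs1, Socs3, Ccl3, Relb, Rela, Tlr8, Tlr4, Irak2, Irak4, Cd68, Cd163, Fpr1, Mitf, Traf6, Slc2a3, Insig1 and the members of the Ifit run. DESeq2 1.42.0, limma 3.58.1, other scalings, filters and units, a replicate block and fits without each library were the alternatives.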

Additional observations from a re-analysis of the deposited data

How the results depend on the processing

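No called value changed direction under any alternative, and no gene called under another setting went against its direction. With DESeq2 967 genes were lowered, 118 of them at least 2-fold. A filter of 5 CPM left 94 genes lowered at least 2-fold, with fewer genes tested, and an adjusted p under 0.01 left 1084 lowered. Fits on log2 values called fewer genes; the cause was not tested. With log2(TPM + 0.1), 1127 genes were raised and 716 lowered, 110 of these at least 2-fold. With log2(TPM + 1), 1137 were raised (242 at least 2-fold) and 771 lowered (88 at least 2-fold), and with log2(FPKM + 0.1), 1080 were raised and 814 lowered (115 at least 2-fold). Leaving out 1 library gave 1587 to 2015 raised and 1081 to 1705 lowered genes, 388 to 449 and 137 to 187 of them at least 2-fold; a lone library of a group was then assumed to vary like the others. A fit with the replicate number as a block called 3611 genes, 3592 of them shared with the fit without it. Differences between replicates 1 and 2 correlated by -0.00928 to -0.0396 between groups, which gave no sign of pairs. Each difference also holds counting noise, so these values cannot settle whether the numbers mark pairs. Of the calls 54.9% were raised, between 50.9% and 61.2% under the alternatives, and the median of all genes moved at most to -0.0363 on the log2 scale. Of 198 called genes named, 168 were called under every alternative, and all 21 that lost the call without 1 library are given with their results. With 9997515 to 11254944 counts a library, a gene was tested only with about 10 counts or more in at least 2 libraries. The day 0 libraries alone could meet this, so some genes tested had few counts in both groups compared.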

Other observations

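Gene families outside the lists were grouped by name after their values were seen, so their counts are descriptions. Of 80 cytosolic ribosomal protein genes none was raised and 38 were lowered, with a median log2 fold change of -0.09, and of 77 mitochondrial ribosomal protein genes 1 was raised and 19 were lowered. Host genes of small nucleolar RNAs were lowered in 5 of 10 cases and raised in none. Processed pseudogenes, grouped by annotated type, went the other way, with 59 of 228 raised and 4 lowered. Of 34 ribosomal protein pseudogenes, grouped by name, 18 were raised and none lowered. Their reads can be shared with the parent genes, so these values are uncertain. Of 8 Ms4a genes, a family of membrane proteins of leukocytes, 6 were raised, each at least 2-fold, and of 7 Cd300 genes, receptors of myeloid cells, 6 were raised. Trim genes, many of them ubiquitin ligases of antiviral defence, were raised in 14 of 38 cases and lowered in 3. Zinc finger genes named Zfp were raised in 10 and lowered in 24 of 300 cases. Both counts are below the shares of all genes tested, 16.7% raised and 13.7% lowered. Rab GTPases, which direct vesicle traffic, were raised in 12 and lowered in 2 of 45 cases.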
